A study of Arabidopsis thaliana with 60 samples.

Results

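AT4G29020, AT1G11850 and AT5G62210 are 3 nuclear genes of Arabidopsis thaliana whose signal climbed steeply from the oldest to the youngest rosette leaves. They were taken by locus, as every probe set annotated to one of them alone. Each had 1 such probe set, so 3 of the 13513 probe sets with a single annotated gene are described, out of 22746 on the array besides controls. All 3 passed the filter on low values. The choice rested on the trend from rosette leaf 2 to leaf 12, so values along these leaves are given without a test, and tests are kept to leaf sets outside that series. The loci lie on chromosomes 4, 1 and 5. The annotation supplied gives them a locus name and no symbol or product, so nothing is said of what their proteins do.

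The study measured leaf RNA on 60 arrays, 3 for each of 20 leaf sets. Plants of the accession Col-0 on soil, in continuous light at 23 °C and 65% relative humidity, gave the cotyledons, leaves 1 and 2 together, leaf 4 at a length of 1 cm, and rosette leaves 2, 4, 6, 8, 10 and 12. From the same conditions came leaf 7, split into petiole, proximal blade and distal blade, as well as senescing leaves and the cauline leaves of the flowering stem. The plants of the rosette leaf series had 11.1 ± 0.8 rosette leaves at flowering (20 plants counted, per the labels), and their leaf 12 was about 1 cm long. A line labelled gl1T, raised in the same conditions, gave leaf 4 at 1 cm and leaf 12. Its background is given as Col-0 for the leaf 12 arrays, the labels say no more of it, and its genotype was not checked, since no probe set is annotated to GL1 alone. The Col-0 samples of leaf 4 at 1 cm carry a note of adhering soil. In addition, 3 sets of vegetative Col-0 rosettes, numbered 87, 89 and 90, grew in days of 10 h light and 14 h dark at 22 °C (soil is labelled for sets 87 and 89). Col-0 leaves also came from plants in long days at 22 °C on MS medium with 1% sucrose. Plant ages are not labelled.

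A leaf of Arabidopsis grows first by cell division and then by cell expansion. Division ends at the tip first and lasts longest near the base and the petiole, so within one leaf the basal tissue is the least mature. On one rosette harvested at one time, leaf 2 is the oldest and leaf 12 the youngest. In the following, signal is the MAS5 value of a probe set, a brightness on a linear scale with no fixed zero, given per array or as mean ± SD (n = 3 arrays). Signals of different probe sets depend on their probes and are not set against each other. A difference is the log2 difference ± SE of a limma fit to log2(signal + 6.139), which understates the change of dim genes. A gene rose, fell or changed where the Benjamini-Hochberg adjusted p over 15808 probe sets was below 0.05 and the difference at least 1, and a gene with a smaller difference is given by its values alone.

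Array quality was read from the likeness of arrays and from control probe sets. Arrays of one set correlated with r of 0.964 to 0.978 over all probe sets, on log2(signal + 1). The 3'-to-5' ratio of the GAPDH control, a sign of RNA integrity, lay between 0.824 and 3.23, and the highest value belonged to the first array of gl1T leaf 12. That of the actin control differed more between sets. It ran from 1.76 on the second array of sucrose medium to 14.4 on the second array of the leaf 7 petiole, and its part in the results was not tested. The first array of rosette leaf 6 is labelled leaf 4 in its tissue field and was kept by its title. RCA (AT2G39730), the activase of the carbon-fixing enzyme Rubisco, was bright in every set, with its lowest mean signal of 2856 in senescing leaves and its highest of 4992 in leaves 1 and 2. It does not stand for the photosynthesis genes as a list. Of 6 listed, 5 had a probe set, and 4 of the 5 were lower in senescing leaves than in the leaf 7 blade. In that comparison 16% of all probe sets were called lower. Of 7 listed senescence genes 4 had a probe set, and all 4 were higher in senescing leaves than in the leaf 7 blade, where 18% of all probe sets were called higher. In bulk tissue, fewer cells that express a gene and less RNA per cell cannot be told apart.

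AT4G29020 was among the brightest probe sets of young leaves and close to the lower middle of the array in old ones. Along the rosette its signal was 22.6, 26.8 and 25.3 on the 3 arrays of leaf 2 and 83.4, 105 and 79.4 on those of leaf 4. It went on to 152, 151 and 139 in leaf 6, 553, 595 and 574 in leaf 8, and 1190, 1281 and 1286 in leaf 10. In leaf 12 the arrays read 1724, 1331 and 1675. No array of an older leaf reached the lowest array of the next younger one, so the 6 positions did not overlap. Between leaf 2 and leaf 12 the fitted trend spanned 5.92 ± 0.085, the highest of the 8620 tested probe sets with a single gene. The steps were uneven, with log2 steps of 1.61 from leaf 2 to leaf 4, 0.69 to leaf 6, 1.92 to leaf 8, 1.12 to leaf 10 and 0.32 to leaf 12.

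AT1G11850 followed a like course and levelled off between leaf 10 and leaf 12. Its signal was 1.30, 4.48 and 2.24 in leaf 2, the 7.76th to 15.7th percentile of those arrays, and 17.9, 36.1 and 31.8 in leaf 4. Leaf 6 gave 53.4, 47.2 and 50.1, leaf 8 gave 151, 173 and 191, and leaf 10 gave 349, 441 and 376. The arrays of leaf 12 spread from 249 to 506 around a mean of 394 ± 131 and enclosed those of leaf 10 (389 ± 47.6). The second array of leaf 12 was the lowest of its set for AT4G29020 and AT1G11850 and the highest for AT5G62210. The fitted span was 5.65 ± 0.14, rank 3 among the single-gene probe sets.

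AT5G62210 was dim in the older leaves and still climbed from leaf 10 to leaf 12. In leaf 2 it stood at 2.46, 0.915 and 3.48, in leaf 4 at 5.25, 8.72 and 6.04, and in leaf 6 at 18.4, 17.02 and 6.84. Up to leaf 6 all its arrays were at or below the 36.4th percentile. The signal then came to 22.5, 39.0 and 29.0 in leaf 8, 78.1, 108 and 88.99 in leaf 10, and 218, 270 and 177 in leaf 12. Its largest log2 steps were 1.44 from leaf 8 to leaf 10 and 1.21 from leaf 10 to leaf 12, where AT4G29020 stepped by 0.32 and AT1G11850 by -0.034. The pseudocount shrinks the steps between dim leaves. As ratios of mean signal the steps of AT5G62210 were 2.92 from leaf 2 to leaf 4, 2.11 to leaf 6, 2.14 to leaf 8, 3.03 to leaf 10 and 2.42 to leaf 12. The span was 4.77 ± 0.19, rank 7 among the single-gene probe sets. The rule sets no numeric limit. The probe set one rank above stood at 4.83 (AT3G16670) and the next below at 4.58 (AT1G31690). Of all probe sets tested, 11.6% rose along the leaf positions under the same call, a share from which nothing is read for genes chosen on it.

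**Figure D1:**
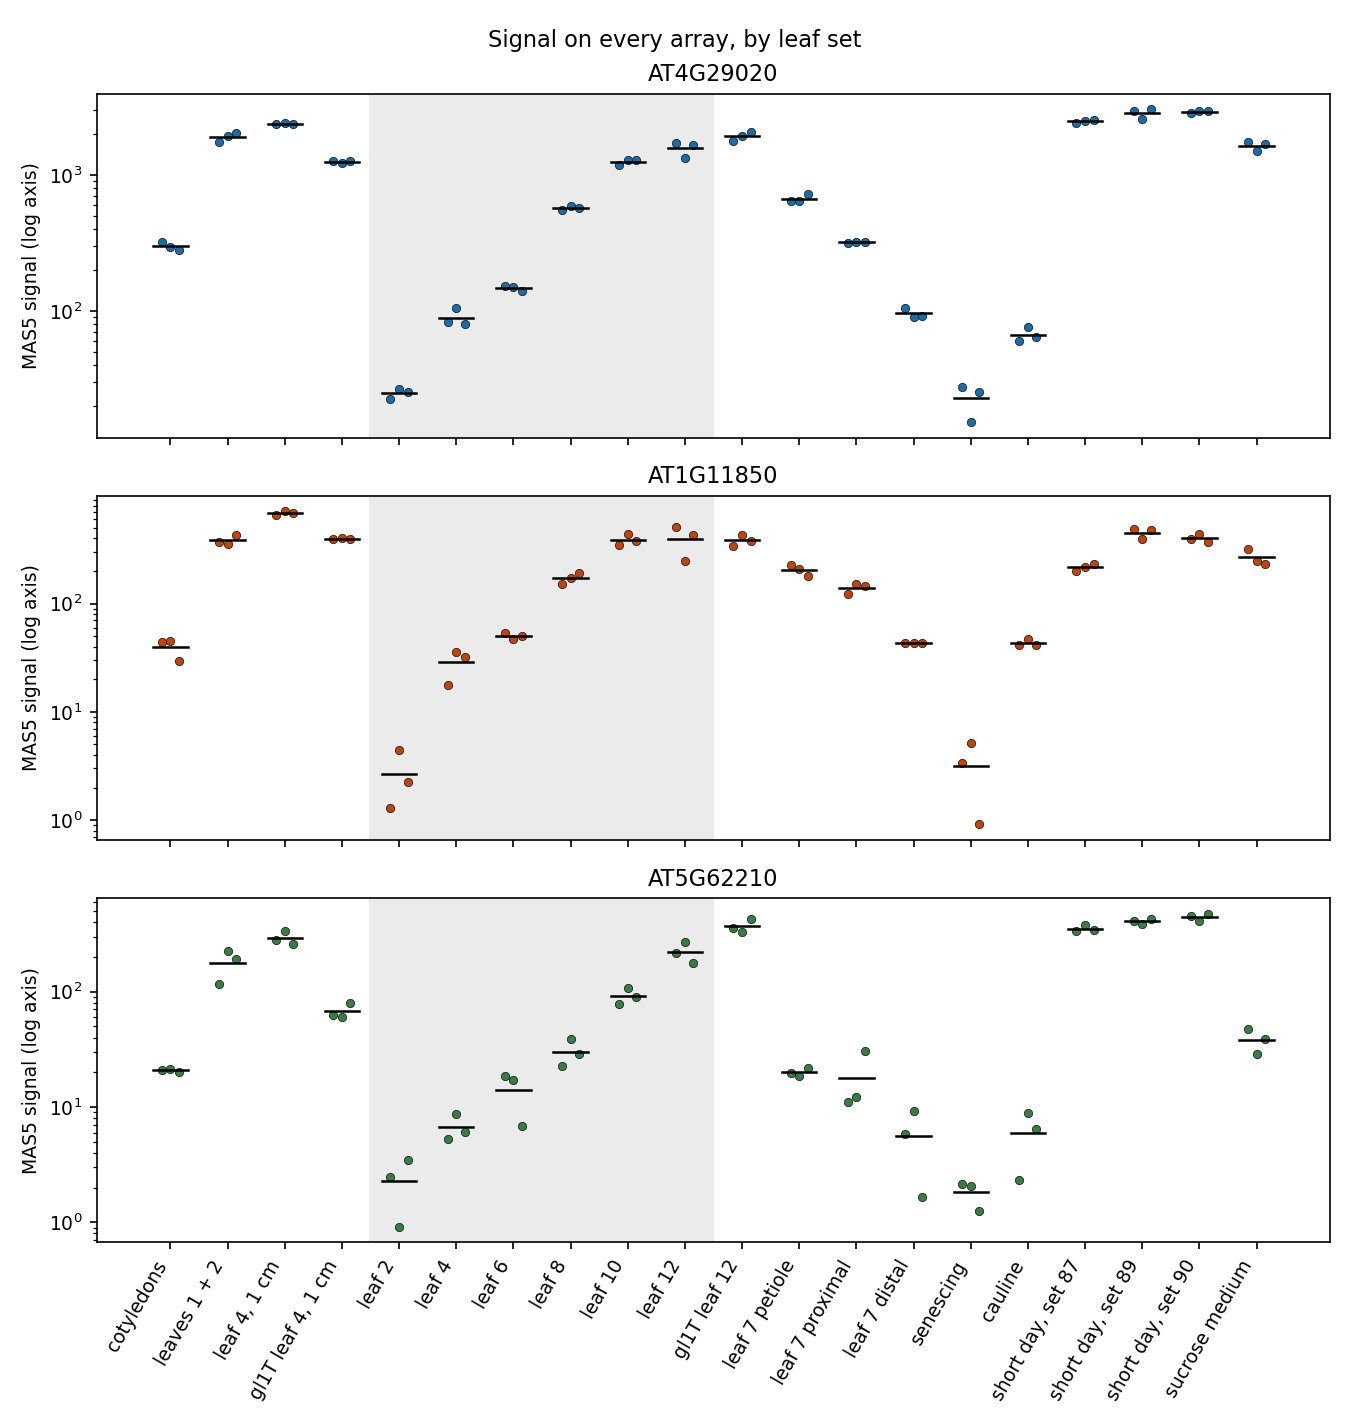
MAS5 signal (log axis) of the 3 genes on every array, by leaf set; points are arrays, bars are means of 3 arrays, and the shaded sets are rosette leaves 2 to 12, on which the genes were chosen. AT4G29020 ran from a mean of 22.7 in senescing leaves to 2918 in short-day set 90, and AT5G62210 from 1.82 to 446 in the same sets.

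Over all 20 sets the 3 genes had leaf 2 and senescing leaves at the bottom of the order, and AT4G29020 and AT5G62210 had short-day set 90 at the top. AT4G29020 had its highest means in the short-day rosettes (2918 ± 47.5 in set 90, 2862 ± 236 in set 89 and 2481 ± 49.2 in set 87), followed by Col-0 leaf 4 at 1 cm (2387 ± 24.9). Its lowest means were those of cauline leaves (66.9 ± 8.12), leaf 2 (24.9 ± 2.16) and senescing leaves (22.7 ± 6.62), the latter pair overlapping. Of the 19 pairs of neighbours in its order, the arrays of 8 overlapped, among them leaves 1 and 2 with gl1T leaf 12, and leaf 10 with gl1T leaf 4. AT5G62210 also peaked in short-day set 90 (446 ± 33.4), set 89 (406 ± 20.9) and gl1T leaf 12 (369 ± 49.8), and it was lowest in leaf 2 (2.28 ± 1.29) and senescing leaves (1.82 ± 0.498). Neighbours overlapped in 16 of 19 pairs for this gene. In its order only leaves 1 and 2 stood clear of leaf 10, gl1T leaf 4 clear of the sucrose medium, and leaf 8 clear of the cotyledons.

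AT1G11850 differed at the top. It was highest in Col-0 leaf 4 at 1 cm (689 ± 22.7), whose arrays lay above those of every other set. Below it, 7 sets lay within a narrow band from 383 ± 45.5 (gl1T leaf 12) to 453 ± 47.3 (short-day set 89), and each overlapped with the next. Short-day set 87 came further down, at 217 ± 16.1. At the bottom senescing leaves (3.16 ± 2.13) and leaf 2 (2.67 ± 1.63) overlapped, and the lowest of the sets above them, leaf 4, stood clear at 28.6 ± 9.52. In all, 13 of 19 neighbouring pairs overlapped.

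The first test outside the rosette series set young leaves against the blade of leaf 7. Leaf 4 at 1 cm was higher than the blade of leaf 7 for all 3 genes. AT4G29020 read 2393, 2408 and 2359 in leaf 4, 317, 322 and 320 in the proximal and 104, 90.6 and 92.3 in the distal blade, a difference of 3.72 ± 0.087 (adjusted p = 8.87e-39). The difference was 3.03 ± 0.15 for AT1G11850 (adjusted p = 3.79e-25) and 4.21 ± 0.20 for AT5G62210 (adjusted p = 1.68e-25). Every array of leaf 4 lay above every blade array for each gene. Of all probe sets tested, 9.21% were called higher in this comparison. By size of the difference, AT5G62210 ranked 1, AT4G29020 4 and AT1G11850 10 of 15808. PYK10 (AT3G09260), a beta-glucosidase abundant in roots and the only root gene listed, was higher in leaf 4 as well (1.89 ± 0.16), in samples noted for soil, and its part in the result was not tested. Against leaves 1 and 2, PYK10 in leaf 4 at 1 cm differed by -0.41, not a call.

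Cotyledons, the leaves of the embryo, were lower than the first true leaves for all 3 genes. AT4G29020 stood at 321, 296 and 279 in cotyledons and at 1743, 1937 and 2036 in leaves 1 and 2, so that it rose by 2.65 ± 0.10 (adjusted p = 6.91e-29). AT1G11850 rose by 3.11 ± 0.17, from 44.4, 45.2 and 29.8 to 369, 359 and 432 (adjusted p = 1.88e-22). AT5G62210 rose by 2.72 ± 0.23, from 20.7, 21.5 and 20.1 to 115, 224 and 192 (adjusted p = 4.86e-15). No arrays overlapped, and 4.53% of all probe sets were called higher. The 4 senescence genes fell in this comparison, as did PYK10 (-1.85 ± 0.19), where 6.99% of all probe sets were called lower, and their part in the result was not tested. The ranks of the differences were 11, 5 and 8 of 15808. Among the compared sets AT5G62210 passed the filter only through leaves 1 and 2, where it is high. From leaves 1 and 2 to leaf 4 at 1 cm the differences were smaller and none reached 1: 0.33 ± 0.10 for AT4G29020 (adjusted p = 0.00791), 0.83 ± 0.17 for AT1G11850 (adjusted p = 7.58e-05) and 0.74 ± 0.23 for AT5G62210 (adjusted p = 0.00809). All 3 arrays of leaf 4 still lay above those of leaves 1 and 2 for each gene, and 1.68% of all probe sets were called higher. The comparisons with leaves 1 and 2, leaf 4 at 1 cm and the leaf 7 blade share arrays, so they are not independent of each other.

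**Figure D2:**
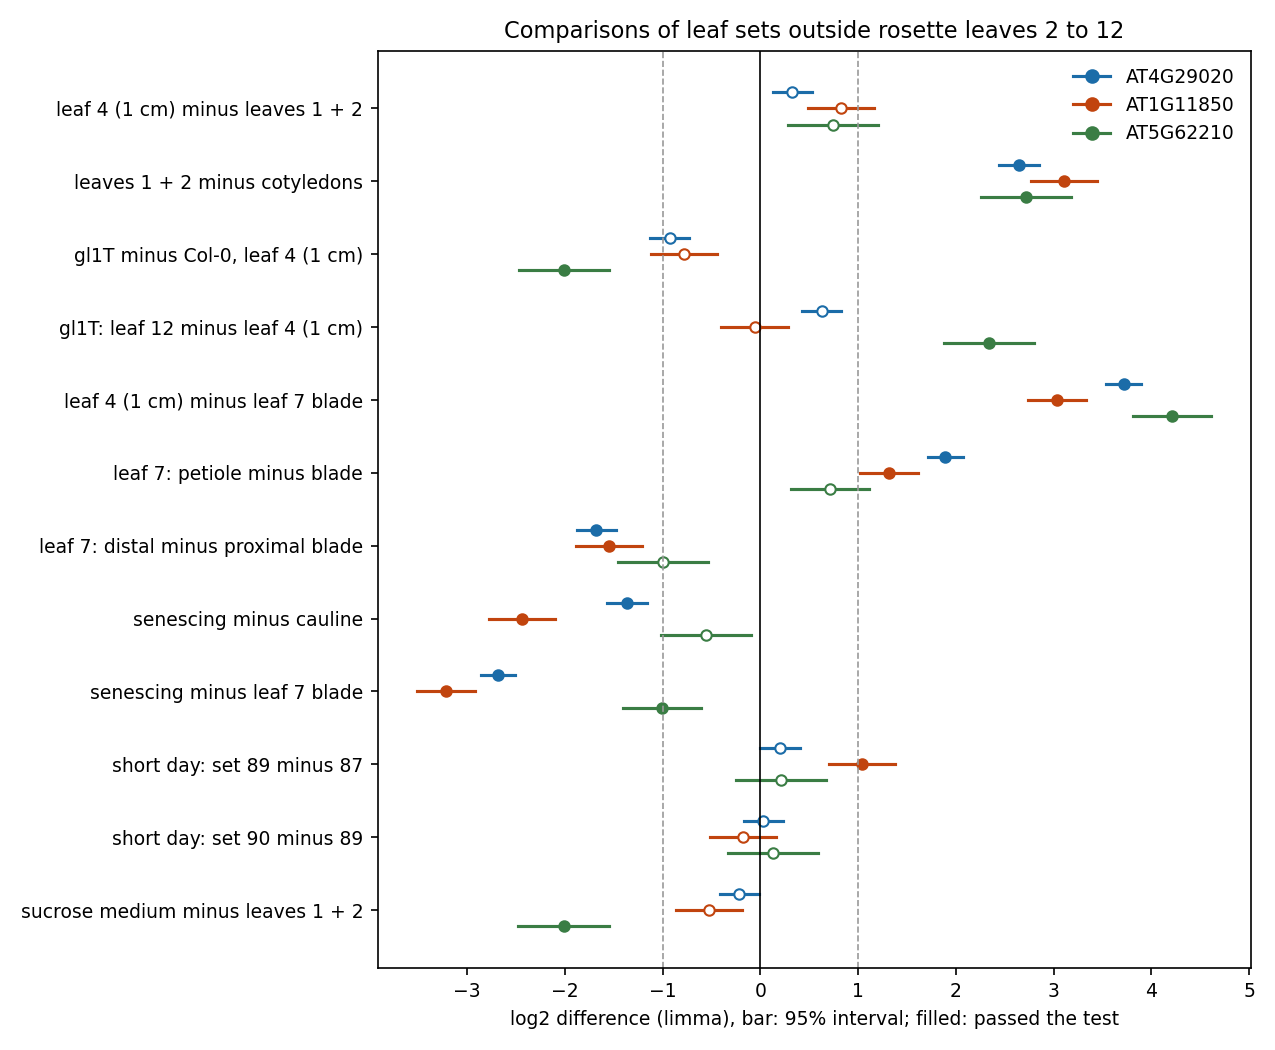
Log2 differences from the limma fit for the 3 genes in the 12 tested comparisons; bars are 95% intervals, filled points passed the test, and dashed lines mark a difference of 1. AT5G62210 reached -2.01 in gl1T leaf 4 and -2.01 on sucrose medium, where the other genes lay between -0.93 and -0.21.

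Within leaf 7 the signal of AT4G29020 and AT1G11850 fell from base to tip. AT4G29020 read 647, 644 and 723 in the petiole, about 320 on each proximal array (319.6 ± 2.75) and 95.8 ± 7.55 in the distal blade. AT1G11850 read 228, 209 and 181 in the petiole, 122, 152 and 145 in the proximal and 43.5, 43.7 and 43.2 in the distal blade. The arrays of the 3 tissues did not overlap for either gene. The distal blade was lower than the proximal blade by -1.68 ± 0.10 for AT4G29020 (adjusted p = 1.34e-18) and -1.55 ± 0.17 for AT1G11850 (adjusted p = 9.06e-10). This contrast moved few genes: 0.228% of all probe sets were called lower in the distal part, 36 in number, and AT4G29020 and AT1G11850 were the 6th and the 8th of 15808 counted from the lowest difference. The GAPDH 3'-to-5' ratio was 1.55 to 2.01 in the proximal and 1.77 to 2.14 in the distal arrays, and its part in the result was not tested.

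The petiole was higher than the mean of both blade parts by 1.89 ± 0.087 for AT4G29020 (adjusted p = 5.2e-25) and by 1.32 ± 0.15 for AT1G11850 (adjusted p = 4.32e-11), where 4.11% of all probe sets were called higher. PYK10 was at the limit of the call there (1.01 ± 0.16), and its part was not tested. AT5G62210 was dim throughout leaf 7, with 19.6, 18.7 and 21.7 in the petiole, 10.9, 12.2 and 30.5 in the proximal and 5.88, 9.29 and 1.65 in the distal blade. Petiole and proximal arrays overlapped, the distal arrays lay below both, and the third proximal array stood apart from the other two. AT5G62210 passed the filter only through other, brighter sets, and with the filter on the compared groups alone it had no value in either comparison. Its difference was 0.71 ± 0.20 between petiole and blade (adjusted p = 0.00209) and -0.996 ± 0.23 between distal and proximal blade (adjusted p = 0.00128), just short of the call. Without the third proximal array the latter came to -0.65 (adjusted p = 0.06). Without the first or second proximal or the first or second distal array it lay between -1.22 and -1.04, and with a pseudocount of 1 it was -1.57, each a call.

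**Figure D3:**
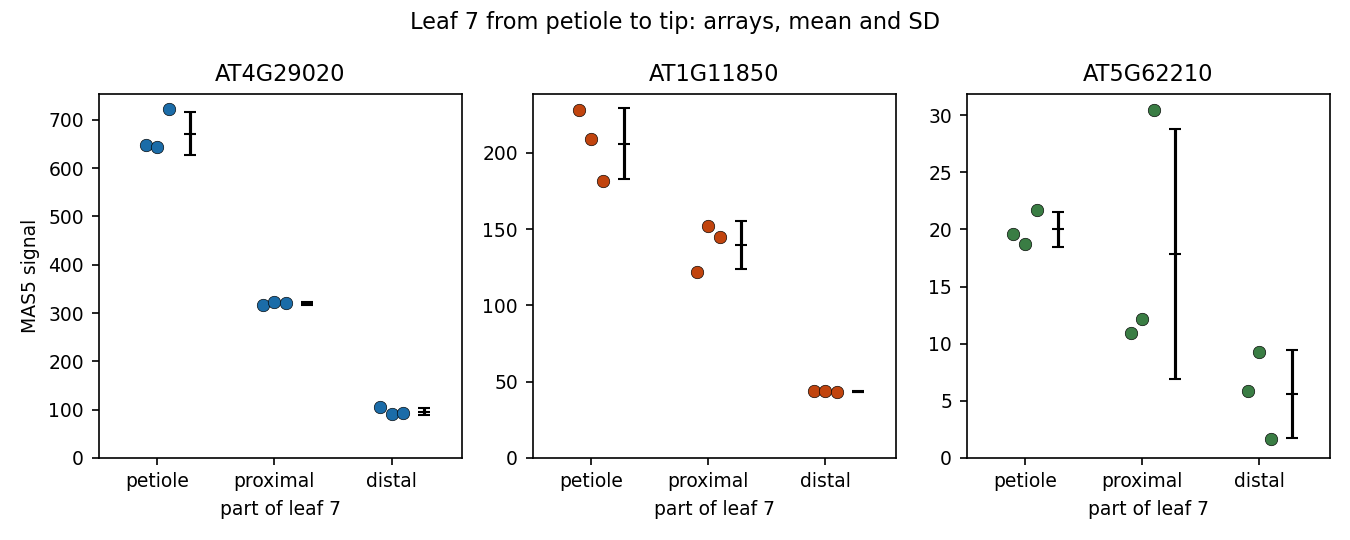
MAS5 signal in the petiole and the proximal and distal blade of leaf 7; points are arrays, the marks to their right mean and SD (n = 3), and each axis starts at 0. AT4G29020 fell from a mean of 671 in the petiole to 95.8 in the distal blade, and AT1G11850 from 206 to 43.4.

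Senescing leaves held little of any of the 3 genes. AT4G29020 read 27.7, 15.2 and 25.2 there and 60.4, 76.0 and 64.2 in cauline leaves, a difference of -1.36 ± 0.10 (adjusted p = 2.18e-17). AT1G11850 stood at 3.40, 5.16 and 0.913 against 41.5, 47.0 and 41.5, a difference of -2.44 ± 0.17 (adjusted p = 1.59e-18). AT5G62210 was below the 25th percentile in both tissues (1.82 ± 0.498 against 5.90 ± 3.34), and its difference of -0.56 ± 0.23 (adjusted p = 0.0314) was short of the call. Of all probe sets, 9.99% were called lower in senescing than in cauline leaves. A pseudocount 4 times larger brought AT4G29020 to -0.96, and one of 1 brought AT5G62210 to -1.17. Against the leaf 7 blade all 3 genes were lower in senescing leaves, by -2.69 ± 0.087 for AT4G29020 (adjusted p = 2.37e-33), -3.22 ± 0.15 for AT1G11850 (adjusted p = 9.54e-27) and -1.01 ± 0.20 for AT5G62210 (adjusted p = 1.02e-05), where 16% of all probe sets were called lower. The value of AT5G62210 was at the limit of the call, with overlapping arrays, and lost it without the third proximal (-0.83), the first distal (-0.98), the second distal (-0.89) or the third senescing array (-0.95). AT5G62210 passed the filter only through other, brighter sets. With the filter on the compared groups alone it had no value against cauline leaves or the leaf 7 blade, so little rests on this call. Set beside the oldest rosette leaf, which belongs to the series used for the choice, senescing leaves differed by -0.13, 0.066 and -0.072 for AT4G29020, AT1G11850 and AT5G62210, and the arrays overlapped for each gene.

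Cauline leaves were close to older rosette leaves for these genes. AT1G11850 had a mean of 43.3 ± 3.21 there, beside 43.4 ± 0.261 in the distal blade of leaf 7, 50.2 ± 3.08 in leaf 6 and 39.8 ± 8.66 in cotyledons. AT4G29020 lay between leaf 2 and leaf 4, with no overlap with either. As descriptions on arrays used for the choice, cauline leaves were below leaf 12 by -4.43, -2.96 and -4.26 for AT4G29020, AT1G11850 and AT5G62210.

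In the line gl1T, AT5G62210 was lower than in Col-0 in leaf 4 at 1 cm. It read 63.3, 60.3 and 80.3 in gl1T and 279, 337 and 260 in Col-0, a difference of -2.01 ± 0.23 (adjusted p = 2.59e-10), the 4th lowest of 15808. Few probe sets went that way: 0.55% of all were called lower in gl1T, against 3.4% higher. AT4G29020 was at 1250 ± 26.4 in gl1T and 2387 ± 24.9 in Col-0 (-0.93 ± 0.10, adjusted p = 5.32e-11), and AT1G11850 at 398 ± 8.08 and 689 ± 22.7 (-0.78 ± 0.17, adjusted p = 0.000189). Both are below the size needed for a call, although all 3 gl1T arrays lay below all Col-0 arrays for each gene. PYK10 had a signal of 11.1 ± 1.33 in gl1T and 51.8 ± 1.95 in the Col-0 samples noted for soil (-1.76, a call), and its part in the result was not tested. Against leaves 1 and 2, PYK10 in these Col-0 samples differed by -0.41, not a call. SPCH (AT5G53210), which starts the stomatal lineage in young epidermis, was lower in gl1T as well (-1.72 ± 0.24). It was the only call among the 2 listed stomatal genes. WRKY53 (AT4G23810), a transcription factor gene of senescing leaves, was higher in gl1T (2.63 ± 0.084), the only call among the 4 senescence genes, and its part was not tested either.

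From leaf 4 to leaf 12 within gl1T, AT5G62210 was the only one of the 3 genes called. It rose from 67.9 ± 10.8 to 353, 330 and 425, a difference of 2.34 ± 0.23 (adjusted p = 2.45e-12), where 1.97% of all probe sets were called higher. AT4G29020 differed by 0.63 ± 0.10 (adjusted p = 1.31e-06), with all 3 arrays of leaf 12 above those of leaf 4, and AT1G11850 by -0.06 ± 0.17 with overlapping arrays, a 95% interval of -0.40 to 0.28. Without the gl1T leaf 12 array of the highest GAPDH ratio the differences were 2.37, 0.68 and 0.018 in the same order. Whether the genes differ from each other in this respect was not tested. In leaf 12 the gl1T arrays of AT5G62210 lay above those of Col-0 (218, 270 and 177), by 0.73, those of AT4G29020 by 0.30, and those of AT1G11850 overlapped (0.013). The Col-0 arrays of leaf 12 were used for the choice of the genes, so no test is given.

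In the short-day rosettes AT4G29020 and AT5G62210 had their highest means, and none of their differences between the sets was a call. Set 87 read 2429, 2486 and 2527 for AT4G29020, and set 89 differed from it by 0.20 ± 0.10 (adjusted p = 0.0994) and set 90 from set 89 by 0.031 ± 0.10 (adjusted p = 0.899), with a 95% interval of -0.17 to 0.23. For AT5G62210 the differences were 0.21 ± 0.23 (adjusted p = 0.473) and 0.13 ± 0.23 (adjusted p = 0.796). The arrays of set 89 lay above those of set 87 for both genes, and those of sets 89 and 90 overlapped. Between sets 89 and 90, 0.43% of all probe sets were called in either direction and none of the 3 genes was. AT1G11850 rose from 200, 219 and 232 in set 87 to 485, 398 and 475 in set 89, by 1.04 ± 0.17 (adjusted p = 1.47e-06), while 0.841% of all probe sets were called higher, and it stood at 393, 438 and 369 in set 90 (-0.17 ± 0.17, adjusted p = 0.579). Its arrays in set 89 did not overlap with set 87. The rise was close to the limit of 1 and came to 0.98 without the first array of set 87. It was 0.98 without the first and 0.999 without the third array of set 89, and all 3 values missed the call. With a pseudocount 4 times larger it was also 0.98. Apart from their numbers, the labels separate these sets only by soil, which is named for sets 87 and 89 and not for set 90, and both comparisons share set 89.

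In leaves from sucrose medium AT5G62210 was lower than in leaves 1 and 2, the only call among the 3 genes. It read 47.2, 29.0 and 38.8 there and 115, 224 and 192 in soil-grown leaves 1 and 2, a difference of -2.01 ± 0.23 (adjusted p = 1.28e-10), where 2.38% of all probe sets were called lower. AT4G29020 read 1745, 1495 and 1683 on sucrose medium, which overlapped with leaves 1 and 2 (-0.21 ± 0.10, adjusted p = 0.0763). AT1G11850 read 322, 249 and 233, below leaves 1 and 2 on every array but by less than the call (-0.53 ± 0.17, adjusted p = 0.0082). Whether the genes differ from each other here was not tested. Medium, day length and temperature differ together between these sets and cannot be told apart, and the labels do not number the leaves taken from sucrose medium. PYK10 had a signal of 828 ± 25.02 there and 71.4 ± 7.72 in leaves 1 and 2, and between 887 ± 53.8 and 2088 ± 49.9 in the short-day rosettes. The senescence genes SAG29 (2.03 ± 0.27) and GAMMA-VPE (1.57 ± 0.067) were also higher on sucrose medium than in leaves 1 and 2, 2 of 4, beside 4.83% of all probe sets called higher. The part of these genes in the results was not tested.

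Genes of cell division were listed because young leaves still divide. The list was drawn up with earlier results of these data known, so its calls in young leaves are no independent evidence. Of 14 listed genes of division and young leaf growth 6 had a probe set, and all 6 passed the filter: the Aurora kinases AUR1, AUR2 and AUR3, the replication licensing factor PRL, the DNA topoisomerase TOPII and the histone gene HTB2. In leaf 4 at 1 cm against the leaf 7 blade, 4 of 6 rose and none fell, beside 9.21% of all probe sets called higher, with a list median of 1.18 beside 0.10 over all probe sets: AUR1 (1.44 ± 0.10), PRL (1.47 ± 0.11), TOPII (1.28 ± 0.21) and AUR2 (1.08 ± 0.13). From cotyledons to leaves 1 and 2, where 4.53% of all probe sets were called higher, 2 of 6 rose (TOPII by 1.35 ± 0.24, PRL by 1.07 ± 0.12). In the petiole against the blade, where 4.11% were called higher, 2 of 6 rose (TOPII by 1.15 ± 0.21, AUR1 by 1.10 ± 0.10). None was called between distal and proximal blade, where only 0.228% of all probe sets were called lower, so the lack of a call among 6 genes says little. In gl1T leaf 4 none was called, beside 0.55% of all probe sets called lower and 3.4% higher. In gl1T leaf 12 against leaf 4 TOPII alone rose (1.10 ± 0.24), beside 1.97% of all called higher. From short-day set 87 to set 89 TOPII again rose alone (1.37 ± 0.24), beside 0.841% called higher. In senescing leaves against the leaf 7 blade, where 16% of all probe sets were called lower, 3 of 6 fell, HTB2 by -2.21 ± 0.086, PRL by -1.78 ± 0.11 and TOPII by -1.35 ± 0.21. This fall was not particular to division genes. In the same comparison 9 of 10 leaf expansion genes (list median -2.96) and 4 of 5 photosynthesis genes (-2.17) fell, beside a median of -1.01 for the division list.

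Over the 14 leaf sets outside rosette leaves 2 to 12, the log2 group means of these 6 genes correlated with AT4G29020 at r of 0.83 to 0.96, with AT5G62210 at 0.82 to 0.92 and with AT1G11850 at 0.71 to 0.89. The median r over 8619 other single-gene probe sets was 0.024, 0.052 and 0.019 in that order. Of these probe sets, 5.14%, 2.40% and 3.83% had r above 0.9 in the same order, so high values were not confined to division genes. These values describe 14 points that share plants, growth conditions and the array scaling, and no test is attached. The listed genes were chosen with earlier results of these data known. The 4 senescence genes ran against AT4G29020 with r of -0.90 to -0.23, and against AT1G11850 with r of -0.89 to -0.45, the transporter SAG29 being nearest 0 in both. Leaf expansion genes showed no common direction: among 10 with a probe set, r with AT4G29020 ran from -0.29 to 0.87, the top value being that of the xyloglucan enzyme gene XTH32. In leaf 4 at 1 cm against the leaf 7 blade, 2 of these 10 rose and 6 fell (9.37% of all probe sets were called lower), among them EXO (AT4G08950), a gene of leaf cell growth, by -2.66 ± 0.061. Photosynthesis genes lay between, with r of 0.21 to 0.61 to AT4G29020 over 5 genes. Of the stomatal genes, SPCH had r of 0.92 with AT5G62210, 0.80 with AT4G29020 and 0.69 with AT1G11850. FMA (AT3G24140) had 0.49, 0.52 and 0.72 in the same order. TRY (AT5G53200), a repressor of trichome fate, had r of 0.19 to 0.31 with the 3 genes, and no seed, embryo or flower gene of the lists had a probe set with a single annotated gene.

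**Figure D4:**
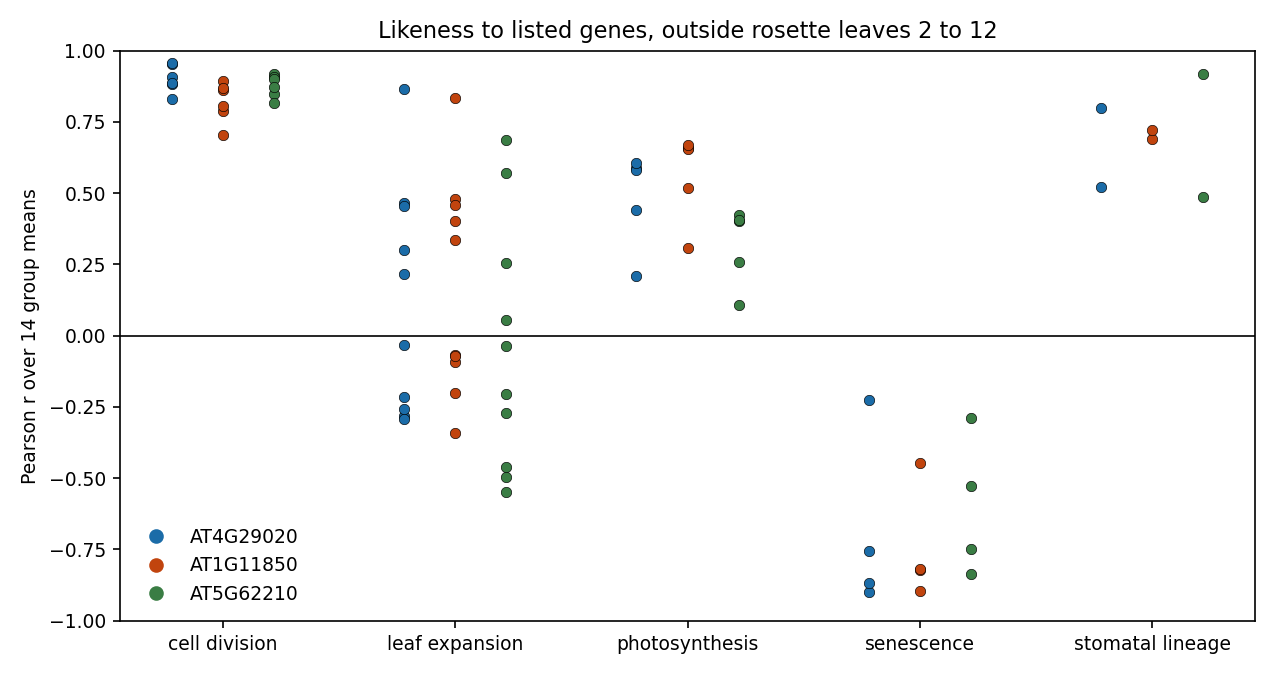
Pearson r of log2 group means over 14 leaf sets outside rosette leaves 2 to 12 between each of the 3 genes and every listed gene with a probe set; each point is 1 listed gene. Cell division genes lay at 0.71 to 0.96 for the 3 genes and senescence genes below 0, while leaf expansion genes spread from -0.55 to 0.87.

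Among themselves the 3 genes were alike, but many other probe sets were more like each of them. Over the 14 sets AT4G29020 correlated with AT1G11850 at r = 0.94 and with AT5G62210 at r = 0.91, and AT1G11850 with AT5G62210 at r = 0.83. In likeness to AT4G29020 over these sets, AT1G11850 ranked 150 and AT5G62210 355 of 8619 probe sets. In likeness to AT1G11850, AT4G29020 ranked 50 and AT5G62210 902. In likeness to AT5G62210, AT4G29020 ranked 138 and AT1G11850 791. Over all 20 sets, which include those used for the choice, the values were 0.96, 0.92 and 0.85. The 5 single-gene probe sets most like AT4G29020 over all 20 sets were ACLB-1 (AT3G06650, r = 0.974), a subunit of ATP citrate lyase, AT5G45670 (r = 0.973), AT4G38660 (r = 0.973), AT5G48490 (r = 0.972) and AT5G41760 (r = 0.972). Over the 14 sets they were CYTC6A (AT5G45040, r = 0.982), AT4G38660 (r = 0.979), AT3G60510 (r = 0.976), AT5G41760 (r = 0.974) and AT5G17070 (r = 0.974). AT4G38660 and AT5G41760 stood in both.

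For AT1G11850 the most alike over 20 sets were AT1G04800 (r = 0.987), AT1G33811 (r = 0.978), AT1G01225 (r = 0.975), AT5G02890 (r = 0.974) and AT4G29020 itself (r = 0.958). Over 14 sets PIR121 (AT5G18410, r = 0.973), a regulator of actin, took the place of AT4G29020 and the other 4 stayed. For AT5G62210 they were AT4G38950 (r = 0.973), AT2G47630 (r = 0.963), AT-HF (AT4G26900, r = 0.960), AT4G02850 (r = 0.959) and AT3G05470 (r = 0.958). Over 14 sets AT4G38950 (r = 0.970) and AT2G47630 (r = 0.954) remained among the 5. No probe set stood among the 5 of more than 1 of the 3 genes in either selection of sets.

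Of 12 listed neighbours of the 3 loci, 6 had a probe set, and their likeness to the gene they adjoin differed in sign. Over the 14 sets AT4G29030 had r of 0.76 with AT4G29020 and AT1G11860 r of 0.70 with AT1G11850. AT4G29030 is the next protein-coding gene beside AT4G29020 in the reference annotation. Both were high in the short-day rosettes, where AT4G29030 read 1095 ± 69.6 in set 87, 792 ± 65.6 in set 89 and 1156 ± 206 in set 90. In leaves 1 and 2 it was at 24.2 ± 4.93 and in leaf 4 at 1 cm at 53.0 ± 4.81, sets in which AT4G29020 was at 1743 or more on each array. On sucrose medium AT4G29030 was at 443 ± 11.6 and thus higher than in leaves 1 and 2 by 3.90 (adjusted p = 3.43e-18), where 4.83% of all probe sets were called higher, while AT4G29020 differed by -0.21. In gl1T it rose from leaf 4 to leaf 12 by 2.09 (adjusted p = 5.29e-09), and it rose by 1.84 in leaf 4 at 1 cm against the leaf 7 blade (adjusted p = 5.81e-10).

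On its other side AIM1 (AT4G29010), an enzyme of fatty acid beta-oxidation, ran the opposite way, with r of -0.78 to AT4G29020 over the 14 sets, and rose in senescing leaves against the leaf 7 blade by 1.45 (adjusted p = 1.62e-29). AT5G62200, next to AT5G62210, varied little, from 112 to 292 over all 60 arrays, and none of its tested differences reached 1. Its r with AT5G62210 over the 14 sets was -0.72. PRH75 (AT5G62190), an RNA helicase gene beyond it, had r of 0.40 with AT5G62210 and was called in 1 of its tested comparisons, where it rose in senescing leaves against the leaf 7 blade, by 1.27 (adjusted p = 2.44e-21). AT1G11860, next to AT1G11850, was lower in senescing leaves, by -3.54 against the leaf 7 blade and by -2.66 against cauline leaves, and was called in no other tested comparison. AT4G29000 was called in none. A further list of 7 loci was drawn up as a protein family (ATS3 and PLAT domain), not by position. The supplied annotation does not give that family, and membership was not checked. Of the 7 loci, 3 had a probe set, AT5G62210 itself, AT5G62200 and AT2G41475. The last did not pass the filter, with no array above the 37.6th percentile.

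**Figure D5:**
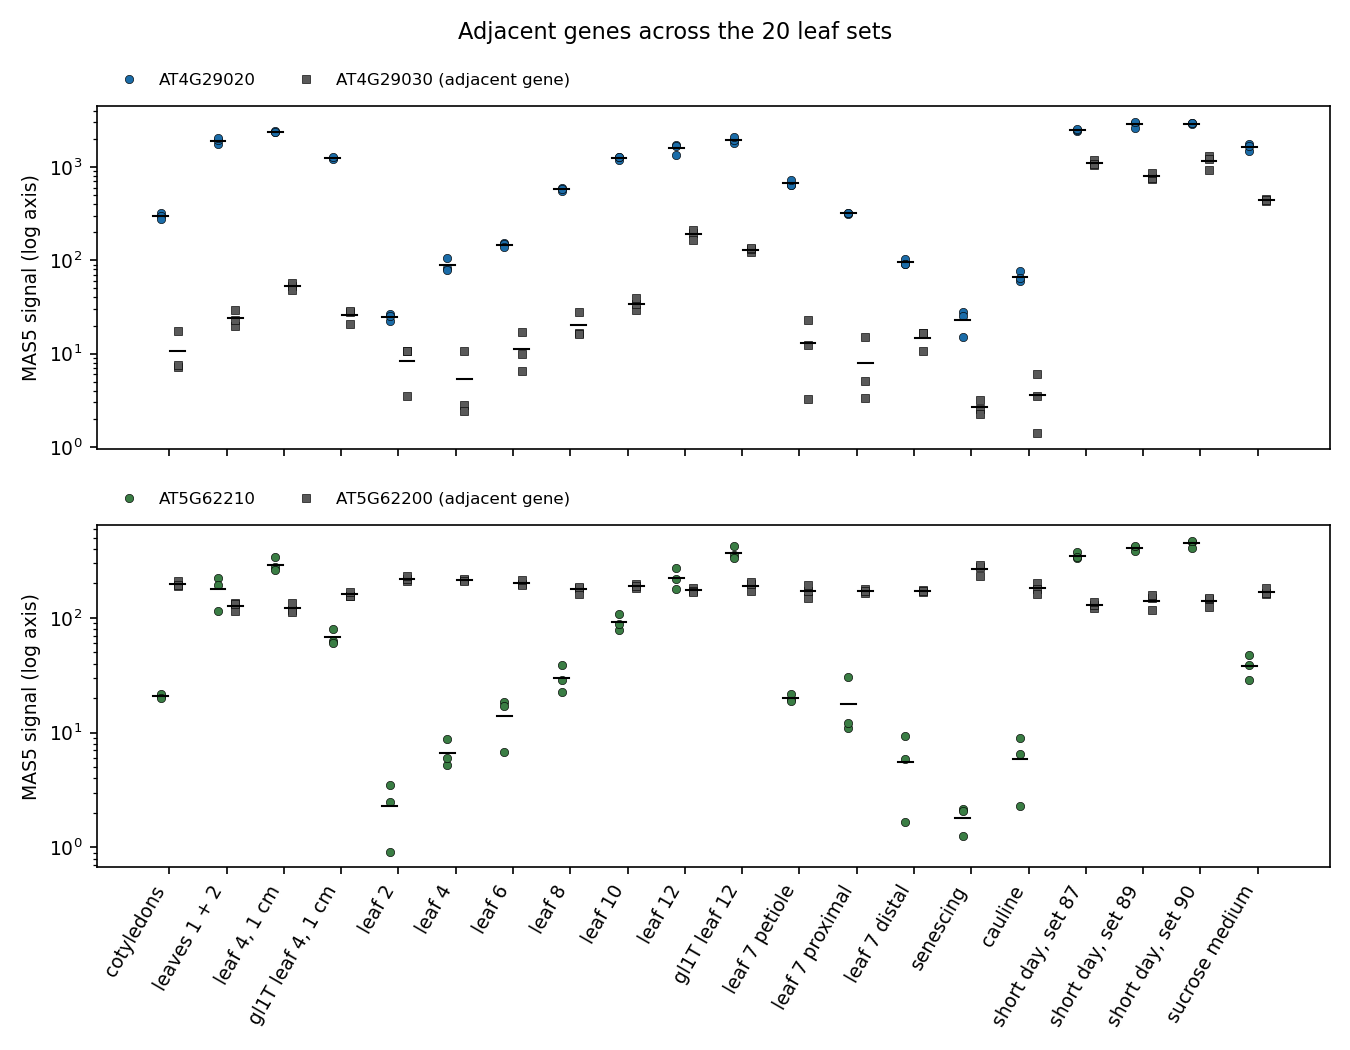
MAS5 signal (log axis) by leaf set of AT4G29020 and AT5G62210 (circles) and of the adjacent genes AT4G29030 and AT5G62200 (squares); points are arrays and bars means of 3. AT4G29030 was high in the short-day sets and on sucrose medium and below 60 in leaves 1 and 2 and both 1 cm leaf 4 sets, and AT5G62200 stayed between 112 and 292; heights of different probe sets are not comparable.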

How the data were processed

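The authors deposited a MAS5 signal for each probe set on each array, a linear intensity computed with MAS5 per the submitters' processing notes. The sources used here do not state the version or settings. With 2% trimmed at each end, the mean was 100 on every array (100.006 to 100.011). The table holds no detection calls, so a dim value says nothing of presence. No further normalization was applied.

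Groups came from the labels, which do not tie arrays to plants. The p-values thus reflect array-to-array spread alone, possibly technical, and 3 arrays a group limit the precision. The 64 control probe sets were left out. The pseudocount of 6.139 is the 20th percentile of signal, taken on each array and then as a median. A probe set was fitted if, in some group, every array had it above that array's 40th percentile, which 15808 did. They entered 1 limma model of all 20 groups (limma 3.58.1, R 4.3.3, empirical Bayes with trend, 40 residual degrees of freedom), with calls as defined in the report. The code was tested on simulated data. Python 3.11.15 and matplotlib 3.10.9 made the figures.

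Names come from the supplied annotation. Of its 13513 single-gene probe sets, 13484 matched a locus of the RefSeq table (TAIR10.1), which gave names and the order of neighbours. Coordinates and sequences were not used here. The 3 genes, the lists and the comparisons were chosen with earlier results of these data known. Named genes are the 3 genes, the 5 most alike by Pearson r, and listed genes with a call, and a listed gene named without one was chosen after its values were seen. Alternatives were other pseudocounts, filters, quantile normalization, a replicate block, only the compared groups, a moved array, each array left out and Spearman rho.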

Additional observations from a re-analysis of the deposited data

Results flagged for a closer look

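For AT4G29020 and AT5G62210, every gl1T array lay below the Col-0 arrays in leaf 4 at 1 cm and above them in leaf 12. AT4G29020 stood at -0.93 in leaf 4 and 0.30 in leaf 12, and AT5G62210 at -2.01 and 0.73. The difference between the leaves was not tested, because the Col-0 arrays of leaf 12 belong to the series on which the genes were chosen. A note of adhering soil stands on the Col-0 samples of leaf 4, and the labels give a length of about 1 cm for Col-0 leaf 12 but none for gl1T leaf 12.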

How the results depend on the processing

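Of 36 tested values of the 3 genes 19 were calls, and 6 of the 36 crossed the limit of the call under some alternative, while no call changed sign. With a pseudocount of 1, AT5G62210 became a call in the leaf 7 petiole (1.09), in the distal blade (-1.57) and in senescing against cauline leaves (-1.17). With one 4 times larger, AT4G29020 in senescing against cauline leaves (-0.96), AT5G62210 in senescing leaves against the leaf 7 blade (-0.42) and AT1G11850 between short-day sets 87 and 89 (0.98) were no longer calls. Quantile normalization took AT5G62210 in the distal blade to -1.01. With single arrays left out, this value ran from -1.22 to -0.65, that of AT5G62210 in senescing leaves against the blade from -1.14 to -0.83 and that of AT1G11850 in the short-day sets from 0.98 to 1.12. Used only with the compared groups, the filter removed AT5G62210 from 5 comparisons and AT1G11850 from 1, which have no value there. For AT5G62210 these were both comparisons within leaf 7 and those of senescing leaves with cauline leaves, the leaf 7 blade and leaf 2. AT1G11850 lost the last of these.

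Counts of called probe sets moved most with the pseudocount. One 4 times larger gave 364 in place of 689 (leaf 4 at 1 cm against leaves 1 and 2), 1092 in place of 1821 (leaves 1 and 2 against cotyledons), 356 in place of 624 (gl1T in leaf 4), 354 in place of 659 (leaf 12 in gl1T), 1836 in place of 2937 (leaf 4 against the leaf 7 blade), 529 in place of 1095 (petiole), 24 in place of 98 (distal blade), 1715 in place of 2620 (senescing against cauline), 248 in place of 514 and 14 in place of 68 (short-day sets 89 and 90) and 619 in place of 1140 (sucrose medium). One of 1 gave 210 for the distal blade, 789 for short-day set 89 and 154 for set 90. For the described values, the span from leaf 2 to leaf 12 was 6.14, 6.71 and 6.10 for AT4G29020, AT1G11850 and AT5G62210 with a pseudocount of 1 and 5.33, 4.25 and 3.16 with one 4 times larger. Leaf 2 against leaves 1 and 2 gave -6.20, -6.81 and -5.79, then -5.28, -3.91 and -2.87, and AT4G29020 -5.72 after quantile normalization. Leaf 4 against leaf 4 at 1 cm gave -5.27 for AT5G62210 with a pseudocount of 1 and -4.41, -3.76 and -3.34 with the larger one, and cauline leaves against leaf 12 -5.13 for AT5G62210, then -4.12, -2.57 and -3.01. A pseudocount bears on dim signals by construction.

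The array letters did not pair the arrays, as deviations of equal letters correlated at -0.12 to 0.078 over 44 pairs. With the replicate block no count moved by over 1.5 times (for example 624 and 623 in gl1T leaf 4), no tested value crossed the limit, and AT5G62210 in gl1T leaf 4 stayed at -2.01. By Spearman rho over 20 sets, 1, 0 and 2 of the 5 most alike genes stayed among the top 5 of AT4G29020, AT1G11850 and AT5G62210, so the ranking of likeness depends on the measure. Moving the first array of set 14 to leaf 4 left the 3 spans within the spread of replicates.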
